A study of Homo sapiens with 24 samples.

Results

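The genes described here were SLC2A1, the glucose transporter GLUT1, and 9 enzymes of glycolysis: HK1, HK2, GPI, PFKP, ALDOA, GAPDH, PGK1, ENO1 and LDHA. They were taken by name among the protein-coding genes of the count table, and all 10 were found, of 48162 genes in the table and 20312 that it lists as protein-coding. RNA-seq had been performed on PPC1, a human prostate cancer cell line, in 4 conditions with 6 libraries each. UT were parental cells harvested on day 5 without radiation or drug, and UT_LCL were parental cells exposed to 5 µM LCL521 for 5 h before harvest. PGCC were cells irradiated with 8 Gy on day 2, trypsinized on day 5 and captured on a 20 micron filter, and PGCC_LCL had the same radiation and filtration with 5 µM LCL521 before harvest. LCL521 is a pro-drug that inhibits the lysosomal enzyme acid ceramidase (ASAH1), and PGCC are polyploid giant cancer cells. The methods of the study name day 3 for the drug where the series' design names day 5. UT cells were not filtered, so radiation and filtration cannot be told apart here. The experiment was done 6 independent times with the 4 conditions harvested in parallel, and the replicate numbers 1 to 6 are those of the labels.

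Glycolysis turns glucose into pyruvate in the cytosol and yields ATP and NADH, and many cancer cells run it at a high rate and release lactate even where oxygen is present. Glucose enters through transporters of the SLC2A family, hexokinases trap it as glucose 6-phosphate, and phosphofructokinase commits it to the pathway. Lactate dehydrogenase regenerates the NAD+ that GAPDH uses. Genes of the pathway are known targets of the hypoxia-inducible factor HIF-1, whose core binding letters are ACGTG or GCGTG, and of MYC and its relatives, which bind the E-box CACGTG.

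Library totals over all genes ran from 14835246 to 19906601 counts. The 24 libraries differed from one another within a condition by more than counting error. The libraries of replicates 4 and 5 stood apart from those of replicates 1, 2, 3 and 6 along the second principal component in all 4 conditions, which held 16.5% of the variance against 55.9% for the first. The labels give no batch, so this set of 2 replicates was defined from the data, and results are given with and without it. Among prostate lineage genes, KLK2, KLK3, TMPRSS2 and FOLH1 had between 0 and 2 counts in every UT and PGCC library, and HOXB13 was present at 745 ± 112 CPM in UT (CPM, read counts scaled to library size with TMM factors, mean ± SD, n = 6). Of the epithelial markers KRT8, KRT18 and KRT19 were present, and EPCAM had at most 17 counts in a UT or PGCC library. A count of 0 allows a level of up to 3 counts, or between 0.151 and 0.202 CPM by library, for counting error only.

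All 10 genes were abundant and passed the filter on low counts in every comparison. Together they held between 0.694% and 1.16% of all counts in UT libraries and between 0.949% and 1.05% in PGCC libraries. Per length, as RPKM (CPM per kilobase of the deposited gene length), ENO1, which makes phosphoenolpyruvate, was highest in UT at 1395 ± 262 RPKM. GAPDH, which oxidizes glyceraldehyde 3-phosphate, followed at 1102 ± 146 RPKM, ALDOA, which splits fructose 1,6-bisphosphate, at 640 ± 118 RPKM, and LDHA, which reduces pyruvate to lactate, at 545 ± 170 RPKM. PGK1, the first ATP-producing step, stood at 191 ± 40.8 RPKM. PFKP, the platelet-type phosphofructokinase, stood at 107 ± 16.8 RPKM and the isomerase GPI at 97.7 ± 20.0 RPKM. The entry steps were lowest: HK2 had 57.9 ± 6.36, HK1 44.3 ± 4.17 and SLC2A1 37.8 ± 11.5 RPKM. Over the 6 UT libraries the ranges of ENO1 and GAPDH, of ALDOA and LDHA, of PGK1 and PFKP, of PFKP and GPI, and of HK1 and SLC2A1 overlapped.

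In PGCC the order was nearly the same, with 2 exchanges of neighbours. GAPDH at 1059 ± 84.8 RPKM and ENO1 at 1037 ± 76.6 RPKM had overlapping ranges, and so had LDHA at 617 ± 44.2 and ALDOA at 589 ± 41.0 RPKM, as well as PFKP and GPI, HK2 and HK1, and HK1 and SLC2A1. The genes lay on 8 chromosomes of hg19, the build named in the submitters' processing notes. ENO1 lies on chromosome 1 from 8921061 to 8939308 on the minus strand, and LDHA on chromosome 11 from 18415935 to 18429972 on the plus strand. PGK1 lies on chromosome X from 77320685 to 77384793 on the plus strand, and SLC2A1 on chromosome 1 from 43391052 to 43424530 on the minus strand. Reads could be shared with processed copies: the 58 rows of GAPDH pseudogenes together held between 0.0964% and 0.266% as many counts as GAPDH, and 6 rows of LDHA pseudogenes between 0.111% and 0.363% as many as LDHA.

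ENO1, the only member that passed the test between PGCC and UT, was taken with LDHA, SLC2A1 and PGK1. The last 3 were the members whose level in UT differed most between the replicate sets. The letters just upstream of a gene's start are shown for these 4 genes. Each is the 250 bases before the start in RefSeq, in the direction of the gene, with coordinates in GRCh38.p14, a build other than that of the counts. Capitals mark ACGTG or GCGTG on either strand, and the E-box CACGTG, which holds ACGTG on both strands.
ENO1, chr1:8878687-8878936, minus strand: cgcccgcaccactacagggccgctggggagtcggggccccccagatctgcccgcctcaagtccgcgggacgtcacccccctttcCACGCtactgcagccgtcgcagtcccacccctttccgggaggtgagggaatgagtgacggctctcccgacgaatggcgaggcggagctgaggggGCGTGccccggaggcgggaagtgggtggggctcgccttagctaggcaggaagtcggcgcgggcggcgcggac
LDHA, chr11:18394313-18394562, plus strand: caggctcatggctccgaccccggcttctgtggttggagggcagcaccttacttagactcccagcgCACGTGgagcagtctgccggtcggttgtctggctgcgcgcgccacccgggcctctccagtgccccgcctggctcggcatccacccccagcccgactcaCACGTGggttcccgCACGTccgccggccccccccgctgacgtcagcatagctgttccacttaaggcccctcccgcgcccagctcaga
PGK1, chrX:78103998-78104247, plus strand: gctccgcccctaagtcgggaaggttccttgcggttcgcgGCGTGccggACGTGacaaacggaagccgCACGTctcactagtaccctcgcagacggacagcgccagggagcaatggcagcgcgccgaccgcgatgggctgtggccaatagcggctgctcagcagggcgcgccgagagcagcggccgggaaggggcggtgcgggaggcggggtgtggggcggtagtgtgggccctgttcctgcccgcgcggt
SLC2A1, chr1:42958869-42959118, minus strand: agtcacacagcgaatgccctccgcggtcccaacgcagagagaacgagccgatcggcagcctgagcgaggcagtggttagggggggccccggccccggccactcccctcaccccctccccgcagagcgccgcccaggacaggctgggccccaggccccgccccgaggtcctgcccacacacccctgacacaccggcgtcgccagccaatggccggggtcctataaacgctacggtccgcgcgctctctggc
ENO1 and PGK1 held the short core and no E-box, LDHA held 2 E-boxes and 1 further core, and the SLC2A1 window held neither motif. The LDHA window is that of the more upstream of 2 RefSeq starts. The ENO1 window overlapped ENO1-AS1 and the SLC2A1 window SLC2A1-DT, while no RefSeq gene overlapped the LDHA and PGK1 windows. All 10 members were matched, with 23 starts, of which 14 had the core in their window and 4 the E-box. The shares among 35116 windows of the same length were 43.2% for the core and 6.3% for the E-box. A match is a description of the letters and shows no binding.

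**Figure D1:**
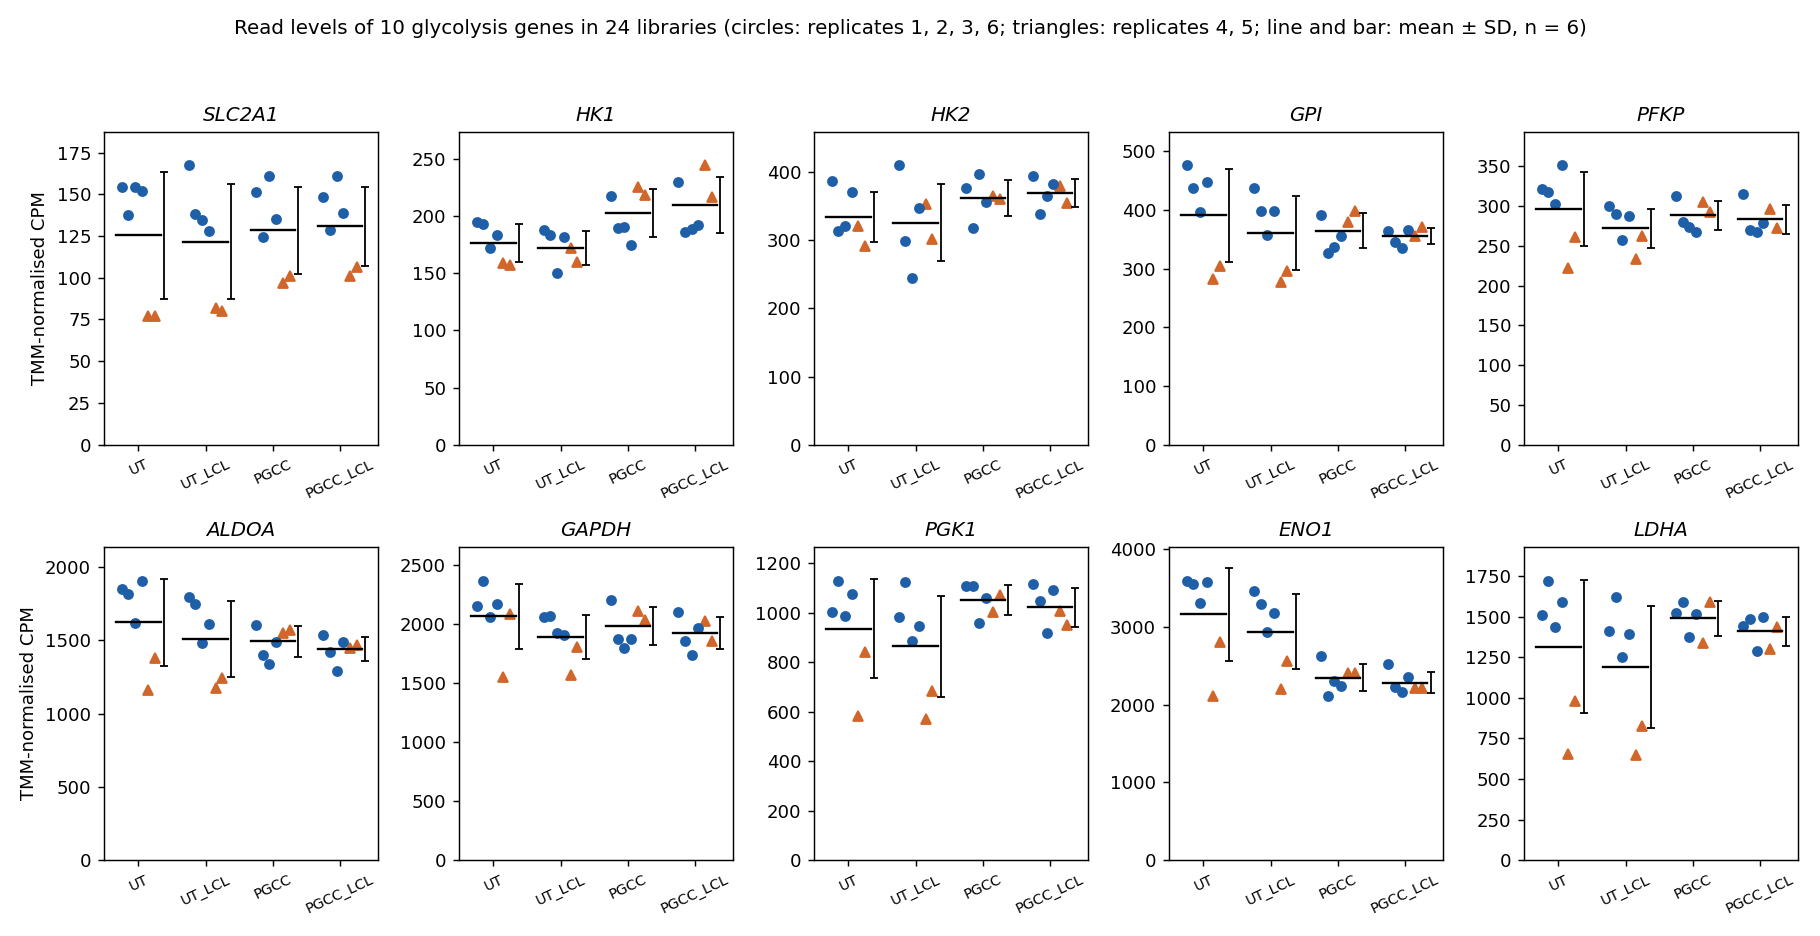
Level of each of the 10 genes (y axis, TMM-normalised CPM, each panel from 0) in the 24 libraries, by condition. Circles are replicates 1, 2, 3 and 6, triangles replicates 4 and 5, and lines with bars are mean ± SD over 6 libraries. The triangles lie below all circles in UT for 8 of the 10 genes, LDHA among them (655 and 984 CPM), and among the circles in PGCC for most. The share of all genes with such a separation was not computed.

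The comparison of PGCC with UT asks which transcripts set the giant cells apart from their parental cells. Of the 10 genes only ENO1 passed the test, with a fall. The test called 6541 of 13812 genes, a background of 47.4% in either direction, of which 23.1% rose and 24.3% fell, so 1 of 10 members is a smaller share than among all genes tested. In bulk libraries fewer cells of a kind and less RNA per cell cannot be told apart. The median size of the change, whatever its sign, was 0.12 on the log2 scale for the 10 genes and 0.37 over all genes. The ranges of PGCC and UT libraries overlapped for all 10 members, while 26.8% of all genes tested had ranges that did not overlap. Under library totals in place of TMM the log2 fold changes of GPI, PFKP and GAPDH had the opposite sign (0.00, 0.06 and 0.04). The median of all genes then stood at 0.07 in place of -0.03, and of the genes called 60.2% were higher in PGCC in place of 48.7%.

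ENO1 lay between 2113 and 3597 CPM in UT, with a median of 3437, and between 2118 and 2626 CPM in PGCC, with a median of 2351. The 2 lowest UT libraries were replicate 4, at 2113 CPM, and replicate 5, at 2812 CPM, the first just below the PGCC values and the second above them. ENO1 fell by 0.42 on the log2 scale (SE 0.11, 95% interval -0.67 to -0.17, adjusted p = 0.0080 by edgeR's quasi-likelihood test), to 0.747 of the UT level. The two-sided exact permutation test on log2 CPM gave p = 0.0216, where 0.00216 is the smallest that 6 against 6 libraries allow. ENO1 was lower in PGCC in 5 of 6 replicates. Without replicates 4 and 5 the difference was larger, at -0.58 (adjusted p = 2e-05).

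The entry steps did not pass the test. HK1, the hexokinase that most tissues express, lay between 157 and 195 CPM in UT and between 175 and 226 CPM in PGCC. Its log2 fold change was 0.21 (95% interval 0.03 to 0.38, adjusted p = 0.051), just outside the threshold, and it passed under DESeq2 (0.033), RLE size factors (0.046), library totals (0.0081) and without replicate 6 (0.035). HK2, the inducible hexokinase of many tumors, had 292 to 388 CPM in UT and 318 to 398 CPM in PGCC, with a log2 fold change of 0.13 (95% interval -0.05 to 0.30), and it passed under library totals (0.22, adjusted p = 0.036), which called 45.9% of genes. SLC2A1 had 76.8 to 155 CPM in UT and 97.1 to 161 CPM in PGCC, with a log2 fold change of 0.05 (95% interval -0.38 to 0.48). The SD of SLC2A1 was 30.4% of its mean in UT and 20.3% in PGCC.

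In the middle of the pathway, GPI, which makes fructose 6-phosphate, had a log2 fold change of -0.09 (95% interval -0.35 to 0.17), PFKP of -0.03 (-0.24 to 0.18) and ALDOA of -0.11 (-0.35 to 0.12). GAPDH stood at -0.05 (-0.24 to 0.14) and PGK1 at 0.18 (-0.09 to 0.45). LDHA stood at 0.19 (-0.20 to 0.58, adjusted p = 0.42), and its libraries ran from 655 to 1724 CPM in UT and from 1341 to 1591 CPM in PGCC. The PGCC values of LDHA all lay within the range of UT. None of these 6 passed the test, and the intervals leave room for changes of up to 0.58.

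**Figure D2:**
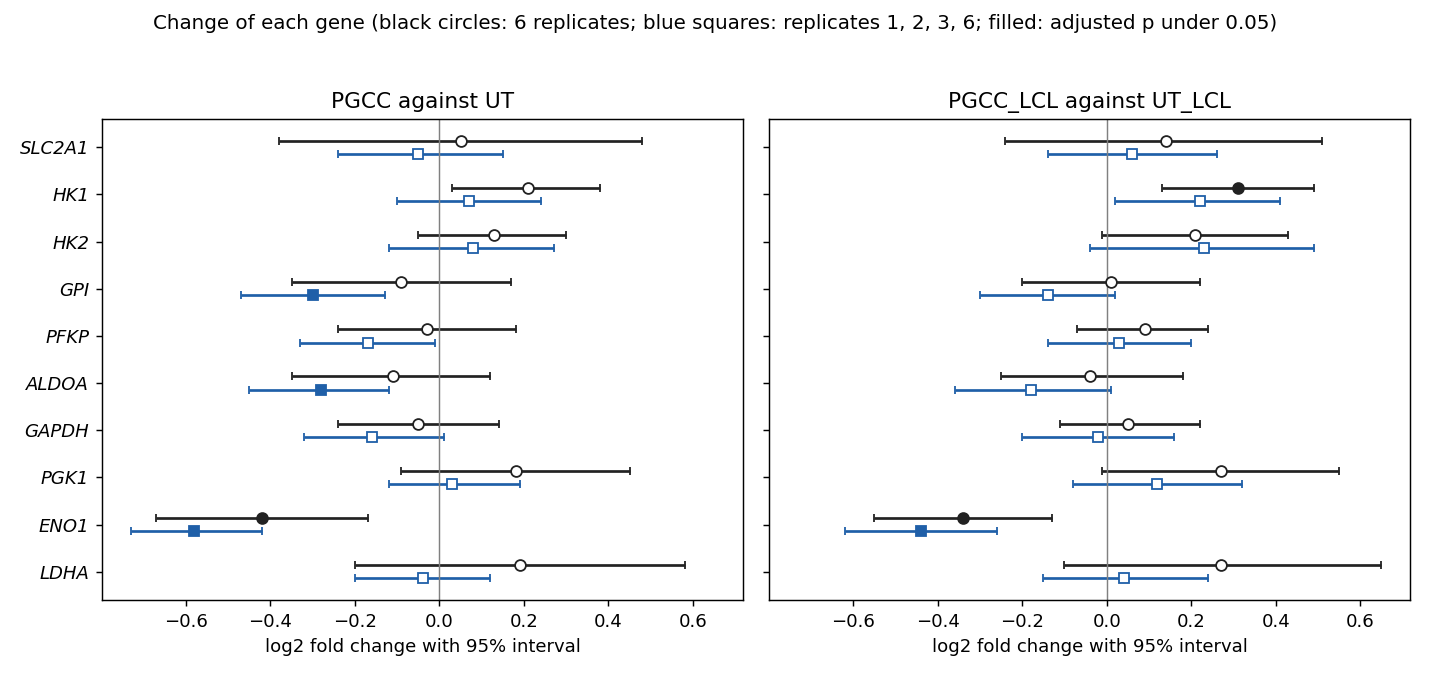
Log2 fold change of each gene (x axis) with its 95% interval, PGCC against UT on the left and PGCC_LCL against UT_LCL on the right. Black circles use 6 replicates and blue squares replicates 1, 2, 3 and 6, with filled symbols for an adjusted p under 0.05. ENO1 lies below 0 in both panels, and GPI and ALDOA are filled only among the blue squares on the left (-0.30 and -0.28).

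The averages over 6 replicates joined differing values. In UT every member had a lower mean CPM in replicates 4 and 5 than in replicates 1, 2, 3 and 6. LDHA stood at 655 and 984 CPM in UT replicates 4 and 5, and between 1437 and 1724 CPM in the other 4. SLC2A1 stood at 76.8 and 76.9 CPM against 138 to 155 CPM. With means taken on the log2 scale, the ratio of the pair to the others was 0.514 for LDHA, 0.515 for SLC2A1 and 0.668 for PGK1. It was 0.669 for GPI, 0.695 for ENO1 and 0.703 for ALDOA. For PFKP the ratio was 0.747, for GAPDH 0.824, for HK1 0.852 and for HK2 0.883. Both libraries lay below all 4 others for every member other than HK2 and GAPDH. The share of all genes that separated in this way was not computed, so this is not a trait shown for the members alone. On the log2 scale the median gap of the 10 genes was -0.52, while over 14555 genes it was 0.01 and 49.5% of them were lower in replicates 4 and 5.

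In UT_LCL, cells of the same 6 experiments after the drug, the gap was much alike, with a median of -0.45 and a ratio of 0.518 for LDHA. In PGCC it was not seen for most members: the median gap was 0.07 and the ratio was 0.973 for LDHA, 0.981 for PGK1 and 1.04 for ENO1. SLC2A1 was the exception, with a ratio of 0.696 in PGCC and 0.723 in PGCC_LCL and both libraries below the 4 others in all 4 conditions. HK1 had the opposite gap in PGCC, with a ratio of 1.15 and both libraries above the 4 others. The gap was also smaller in PGCC over all genes. Its median size there was 0.22 over all genes and 0.09 for the members, against 0.36 and 0.52 in UT. Since the set was defined from all genes of these libraries, no test of these gaps is given.

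The difference between PGCC and UT of the same replicate ran in opposite directions in the 2 sets for several members. In replicates 1, 2, 3 and 6 the log2 difference of LDHA lay between -0.12 and 0.01, and in replicates 4 and 5 it was 0.69 and 1.03. For GPI it lay between -0.42 and -0.23 in the former and at 0.39 and 0.42 in the latter. ALDOA had -0.38 to -0.21 against 0.19 and 0.42. SLC2A1 had -0.16 to 0.06 against 0.34 and 0.39, and PGK1 -0.04 to 0.15 against 0.35 and 0.79. ENO1, which fell by 0.45 to 0.75 in replicates 1, 2, 3 and 6, had values of -0.23 and 0.19 in replicates 4 and 5. HK2, with -0.06 to 0.31 against 0.19 and 0.30, differed least.

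Without replicates 4 and 5, GPI stood at -0.30 (adjusted p = 0.0061) and ALDOA at -0.28 (0.0061). With ENO1, 3 of 10 members passed where the background was 54.6%. LDHA then stood at -0.04 (95% interval -0.20 to 0.12) and SLC2A1 at -0.05 (-0.24 to 0.15), both with the sign opposite to that over 6 replicates, and HK1 at 0.07 (-0.10 to 0.24). With the replicate number as a block as well, PFKP stood at -0.17 (adjusted p = 0.024) and GAPDH at -0.16 (0.03). Then 5 of 10 members passed where the background was 64.3%. Replicates 4 and 5 were set apart from these same data and had the lower UT means for all 10 members. Leaving them out thus raises the UT mean of each member, and every adjusted p given without them is descriptive only.

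**Figure D3:**
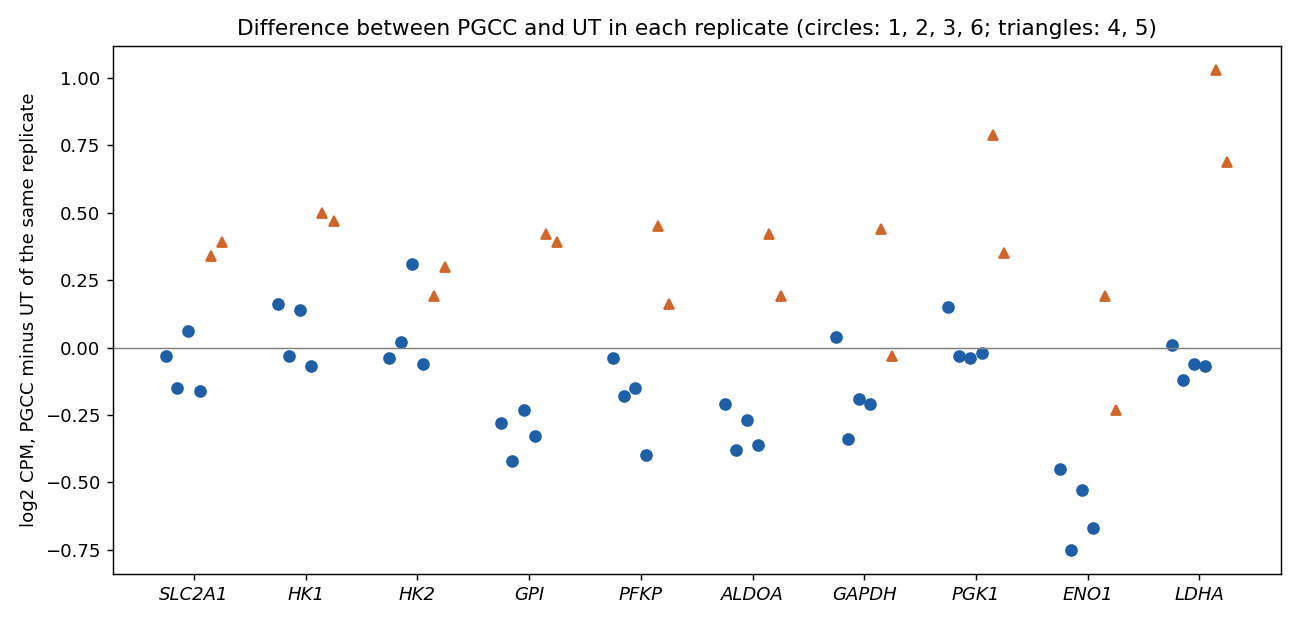
Difference in log2 CPM between PGCC and UT of the same replicate (y axis) for each of the 10 genes (x axis). Circles are replicates 1, 2, 3 and 6 and triangles are replicates 4 and 5. For LDHA the circles lie between -0.12 and 0.01 and the triangles at 0.69 and 1.03.

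Other genes of glucose metabolism and hypoxia also differed between the replicate sets in UT. PFKFB4, which makes the activator fructose 2,6-bisphosphate, was lower by 2.33 on the log2 scale in replicates 4 and 5 (a gap of -2.33), the lactate exporter SLC16A3 had a gap of -1.28 and PGAM1 of -0.69. Among hypoxia targets outside glycolysis, ADM had a gap of -2.02, ANGPTL4 of -1.76 and BNIP3 of -1.25, while VEGFA had 2.17 and DDIT4 2.58, so that these targets did not share a direction. TXNIP, which restrains glucose uptake and rises with glucose through MondoA, had a gap of 2.14 and MYC of 0.70. In PGCC the gaps were -0.12 for PFKFB4, -0.14 for SLC16A3, -0.11 for VEGFA and -0.11 for PGAM1. They were -0.76 for ANGPTL4, -0.59 for ADM, -0.42 for BNIP3, 0.34 for DDIT4, 0.60 for TXNIP and 0.20 for MYC. Of these genes PGAM1, TXNIP and MYC were named whatever their result. SLC16A3, PYGB, PCK2, ADM and DDIT4 were named for the size of their change between PGCC and UT in these same libraries. The others were chosen after their values were seen. The summed level of the 5 proliferation genes, MKI67, TOP2A, CCNB1, PLK1 and CDKN1A, moved with the same split in UT, at 243 and 304 CPM in replicates 4 and 5 and between 103 and 201 CPM in the others. In PGCC it lay between 755 and 887 CPM in all replicates. All 5 genes were called higher in PGCC than in UT, where 23.1% of all genes tested were. CDKN1A, an inhibitor of the cell cycle, rose most, by 3.74 on the log2 scale against 1.66 to 2.19 for the others. The sum is therefore not a level of proliferation alone. In the replicate split CDKN1A went against the list, with a gap of -1.16 in UT and -1.52 in PGCC. The part of these in the level of the 10 genes was not tested.

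Variation within a condition was shared among the members. Correlations were taken of log2 CPM as deviations from the condition means, and since replicates 4 and 5 formed a cluster of their own, values are given for the 16 other libraries, which come from 4 experiments. Over the 45 pairs of members the median Pearson r was 0.60, and 43 were above 0. The same was not computed for pairs of other genes, so whether such sharing is particular to the members was not tested. PGK1 and LDHA had r = 0.95 and GPI and ALDOA r = 0.89, while SLC2A1 and LDHA had r = -0.45. The gene most like each member was chosen over all 24 libraries among all genes tested. It was FSCN1 for GPI (r = 0.93 in the 16 libraries), GPI for ALDOA (0.89), LDHA for PGK1 (0.95), PKM for GAPDH (0.92), SEPTIN9 for PFKP (0.92) and CFL1 for ENO1 (0.83). It was SND1 for HK2 (0.86), TTLL5 for HK1 (0.79), SNRNP25 for LDHA (0.78) and SLC7A6 for SLC2A1 (0.74). So 3 of the 10 most-like genes were other glycolysis genes, counting pyruvate kinase PKM. This count was not compared with that for other genes. The 16 libraries are among the 24 used for the choice, so their r is no separate check of it.

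With LCL521 in both populations, PGCC_LCL against UT_LCL, ENO1 again fell and HK1 rose. The test called 48.9% of 13818 genes and 2 of the 10 members. ENO1 lay between 2199 and 3465 CPM in UT_LCL and between 2159 and 2519 CPM in PGCC_LCL, a fall of 0.34 (95% interval -0.55 to -0.13, adjusted p = 0.011). The call of ENO1 was lost without replicate 2 (-0.30, adjusted p = 0.051). HK1 lay between 150 and 188 CPM in UT_LCL and between 186 and 245 CPM in PGCC_LCL, and rose by 0.31 (95% interval 0.13 to 0.49, adjusted p = 0.0072). HK1 was higher in 6 of 6 replicates. Of all genes tested 50.7% had all 6 pairs in 1 direction, whichever it was, and 26.2% were lower in all 6. The HK1 call was lost without replicates 4 and 5 (0.22, adjusted p = 0.061), where 52.5% of genes and ENO1 alone of the members passed. With the block added there, 57.5% of genes passed, and HK1 (0.22, adjusted p = 0.03) and HK2 (0.24, adjusted p = 0.041) passed beside ENO1. With the replicate number as a block, which called 56.3% of genes, HK2 (0.22, adjusted p = 0.035) and PGK1 (0.30, adjusted p = 0.039) passed as well over 6 replicates, though neither did with a gene length correction added. The ranges of the 2 conditions overlapped for all 10 members, where 28.1% of all genes tested did not overlap. These libraries are from the same 6 experiments as UT and PGCC.

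Isozyme make-up was computed as each gene's share of the summed RPKM of its family, with families drawn up after the values were seen. LDHA held between 32.3% and 52.6% of the lactate dehydrogenase total in UT and between 52.1% and 57.3% in PGCC, LDHB holding nearly all the rest. LDHB, the form common in heart, lay between 876 and 1022 CPM in UT and between 719 and 825 CPM in PGCC, without overlap, and fell by 0.30 on the log2 scale (SE 0.06, adjusted p = 1.0e-03), with a lower value in all 6 replicates. Among all genes tested 26.8% had ranges without overlap and 25.8% were lower in all 6 replicates. In replicates 1, 2, 3 and 6 the LDHA share lay between 48.3% and 52.6% in UT and between 54.1% and 57.3% in PGCC, and in replicates 4 and 5 it was 32.3% and 39.4% in UT and 52.1% and 55.3% in PGCC. The LDHA share was higher in PGCC in both replicate sets, although LDHA itself was not higher in replicates 1, 2, 3 and 6 on average.

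ENO1 held between 98.9% and 99.6% of the enolase total in UT and between 98.1% and 98.9% in PGCC. The neuronal form ENO2 rose by 0.70 (adjusted p = 0.021; 0.55 and 0.075 without replicate 4) and the muscle form ENO3, named after its value was seen, by 0.59 (adjusted p = 0.043; lost without replicate 1, 2, 3 or 5, up to 0.15, and without the low count filter, 0.051), from a mean of 6.72 and 4.00 RPKM in UT to 10.8 and 5.99 RPKM in PGCC. PFKP held 48.2% to 60.7% of phosphofructokinase in UT and 54.6% to 61.1% in PGCC, and the muscle form PFKM fell by 0.35 (adjusted p = 0.0058). HK2 held 52.8% to 58.3% of the hexokinase total in UT and 52.7% to 59.0% in PGCC. SLC2A1 held 67.3% to 79.8% of the listed SLC2A transporters in UT and 60.5% to 76.1% in PGCC.

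**Figure D4:**
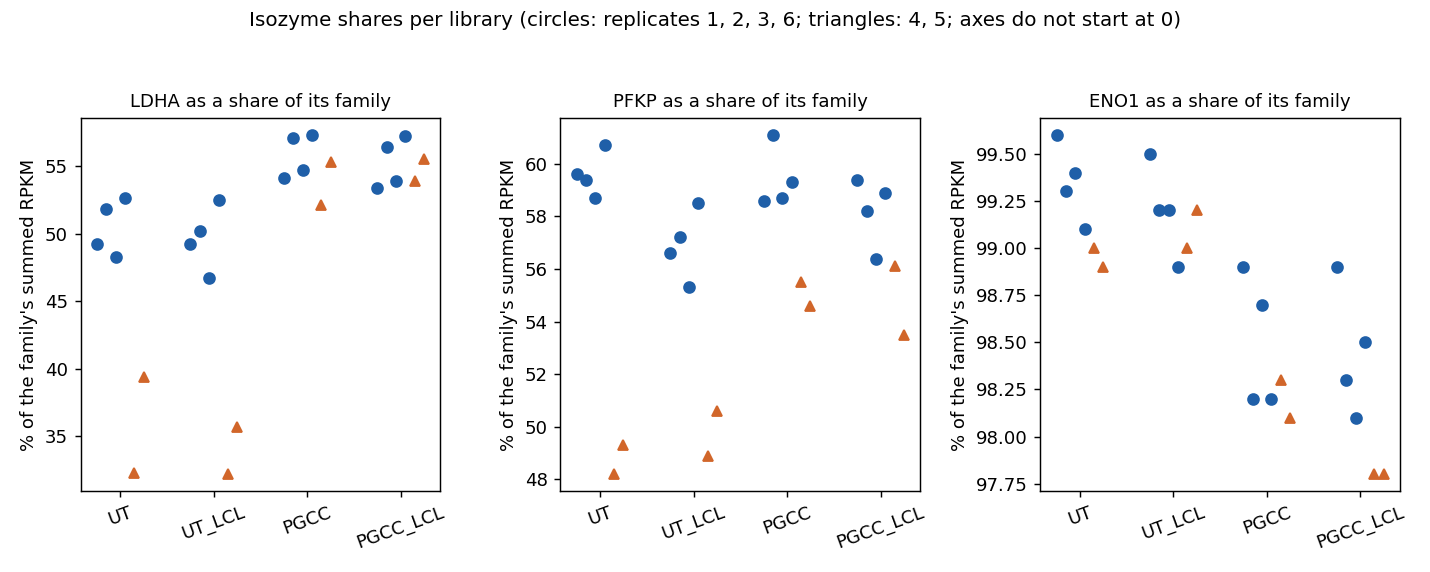
Share of each library's summed family RPKM (y axis, percent, axes not from 0) held by LDHA, PFKP and ENO1 in the 4 conditions. Circles are replicates 1, 2, 3 and 6 and triangles replicates 4 and 5. The LDHA share in UT is lowest in the triangles (32.3% and 39.4%) and in PGCC all 6 libraries lie between 52.1% and 57.3%.

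The rest of the glycolysis list, 12 further enzymes that were tested, held 3 genes that rose in PGCC against UT and 2 that fell. Of all genes tested 23.1% rose and 24.3% fell. BPGM, which makes 2,3-bisphosphoglycerate, rose by 1.27 (SE 0.22, adjusted p = 3.5e-04), with ENO2 and ENO3 beside it, and LDHB and PFKM fell. PKM stood at 0.24 (adjusted p = 0.058; 0.26 and 0.044 with the replicate block), TPI1 at -0.21 (0.083; -0.31 and 0.0008 without replicates 4 and 5) and PGAM1 at 0.16 (0.36). Without replicate 4 alone TPI1 stood at -0.27 (0.007), and without replicate 2 PKM stood at 0.30 (0.049). Of 6 other glucose transporters tested 1 rose, SLC2A6, which sits on lysosomes, by 1.21 (adjusted p = 4.0e-04), and 3 of the transporters rose with the replicate block, which called 56.2% of all genes. With the block ADPGK, an ADP-dependent glucokinase, fell by 0.31 (adjusted p = 0.0070; 0.096 without the block). None of 4 tested regulators of fructose 2,6-bisphosphate passed the test.

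Of 8 lactate and pyruvate carriers and their partners, 1 rose and 3 fell, where 47.4% of all genes tested were called in either direction. The 2 subunits of the mitochondrial pyruvate carrier moved in opposite directions: MPC2 rose by 0.94 (adjusted p = 8.5e-05) and MPC1 fell by 0.70 (1.3e-04). SLC16A3 fell by 0.60 (0.038), a call that was lost without replicate 1, 2, 3 or 6 (adjusted p 0.11, 0.11, 0.10 and 0.13). Of 12 genes of the pyruvate dehydrogenase complex and its kinases and phosphatases, 4 rose and 4 fell. The phosphatase PDP1, which activates the complex, rose by 1.32 (2.0e-07) and the kinase PDK3, which inhibits it, by 1.27 (3.0e-04). The subunit PDHB fell by 0.40 (0.0072) and the phosphatase PDP2 by 0.37 (0.011).

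Genes of the branches that leave glycolysis were tested in the same way, where 23.1% of all genes rose and 24.3% fell. Of 8 pentose phosphate genes 4 fell and none rose, H6PD by 1.03 (adjusted p = 4.6e-04) and RPIA by 0.79 (7.3e-05). All 5 genes of the serine branch changed: PHGDH, its entry enzyme, fell by 1.65 (5.1e-05) and PSAT1 by 1.28 (3.0e-04), while SHMT1 rose by 1.40 (7.4e-06) and PSPH by 0.47 (0.0090). Of 7 hexosamine genes 3 rose, GFPT2 by 1.26 (4.5e-05) and UAP1 by 0.91 (8.1e-05). With the replicate block GNPNAT1 (0.20, adjusted p = 0.019) and MGEA5 (-0.26, adjusted p = 0.0046) passed as well, against 0.22 and 0.065 without it. Of 9 glycogen genes 1 rose and 3 fell, GYG1 by 0.73 (1.7e-04), while GYS1 (0.29, 0.049) lost the call without replicate 1, 3, 4 or 5 and PYGB (-0.66, 0.043) without replicate 1, 4, 5 or 6 (adjusted p up to 0.13). PYGB stood at -0.30 and GYS1 at 0.15 without replicates 4 and 5 (0.086 and 0.17). Of 3 gluconeogenesis genes the mitochondrial PCK2 fell by 2.28 (7.3e-05), to 0.206 of its UT level.

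HIF1A, the oxygen-regulated subunit of HIF-1, stood at -0.05 (adjusted p = 0.72), and at 0.11 without replicates 4 and 5. Of 8 hypoxia regulators 1 rose and 3 fell, among them VHL by 0.52 (7.1e-04; -0.34 and 0.0022 without replicates 4 and 5). The share of all genes tested was 23.1% for a rise and 24.3% for a fall. EGLN2 (0.82, 0.034) lost the call without replicate 2, 3, 5 or 6 and EGLN1 (-0.65, 0.032) without replicate 1, 2, 3 or 6 (adjusted p up to 0.11). Of 16 hypoxia targets outside glycolysis ADM, a vasodilator peptide, rose by 1.68 (0.0018), MXI1 fell by 1.04 (4.0e-05) and DDIT4 by 1.78 (0.014; -1.25 and 0.068 without replicate 5, -0.53 and 0.006 without replicates 4 and 5). With the replicate block, which called 56.2% of all genes, 4 of the 16 rose. Of 10 tested genes on the MYC and MondoA list, which also holds TXNIP, 1 rose and 6 fell. This count pools all listed genes and is no measure of MYC activity. MYC itself fell by 0.89 (2.6e-04), to 0.539 of the UT level, with a lower value than in UT in every PGCC library (593 to 784 CPM against 942 to 1666 CPM). Ranges without overlap were seen for 26.8% of all genes tested. MXD3 (0.92, 0.031) lost the call without replicate 2, 3 or 6 (adjusted p up to 0.075) and MYCL1 (-0.93, 0.028) without replicate 2, 3, 5 or 6 (up to 0.11). TXNIP stood at 0.22 (0.69) over 6 replicates and at 1.08 (adjusted p = 0.00035) without replicates 4 and 5. The latter p is descriptive, since those 2 replicates had the higher TXNIP level in UT (a gap of 2.14).

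GAPDH and PGK1 are often used as references in expression assays, so their spread was set beside that of 14 reference genes. Over the 24 libraries the SD of log2 CPM was 0.15 for GAPDH and PFKP, ranks shared behind TBP (0.11) and YWHAZ (0.12) among these 24 genes. GAPDH ran from 1555 to 2371 CPM, a ratio of 1.53, and the ratio was 1.31 for TBP and 1.29 for YWHAZ. LDHA (0.39), SLC2A1 (0.36), PGK1 (0.28) and ENO1 (0.28) varied more. Among the 14 references, 4 rose and 5 fell in PGCC, including ACTB (-0.53, adjusted p = 0.024) and B2M (0.89, 2.4e-06). The background over all genes tested was 47.4% in either direction.

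LCL521 for 5 h left the 10 genes without a call in either population. In UT_LCL against UT the test called 0 of 13277 genes, with 71 at an unadjusted p under 0.05, 0 by DESeq2 and 115 (0.866%) with the replicate block, no member among the last. The log2 fold changes of the members lay between -0.13 and -0.03. LDHA had the largest, -0.13 (95% interval -0.68 to 0.42, or -0.22 to -0.04 with the block, adjusted p = 0.18), and ran from 646 to 1625 CPM in UT_LCL. LDHA, PGK1 and GPI were lower after the drug in 6 of 6 replicates, as were 4.82% of all genes tested. In single tests by exact sign changes of 6 pairs each gave p = 0.0312, the smallest such a test can give, unadjusted and for 10 genes.

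In PGCC_LCL against PGCC the test called 1 of 14151 genes (0.00707%), or 234 (1.65%) with the block, and no member in either. The members' log2 fold changes lay between -0.08 and 0.05, and every 95% interval lay within -0.27 and 0.33. LDHA was again lower in 6 of 6 replicates, by a mean of 0.08 (a difference of -0.08, SD 0.05), as were 4.22% of all genes. The difference of the LCL521 effect between PGCC and UT lay between 0.05 and 0.10 for the 10 genes and passed the test for none, with 0 of 14555 genes called by edgeR and 60 at an unadjusted p under 0.05. Its 95% interval for LDHA, -0.50 to 0.63, was wide.

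**Figure D5:**
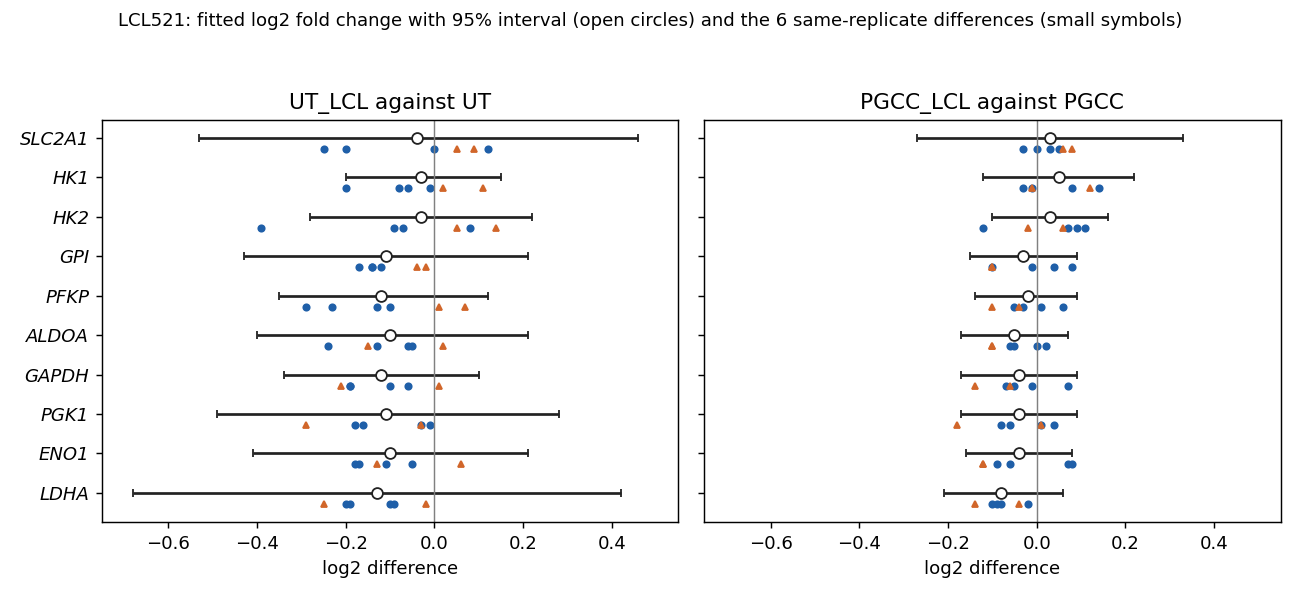
Effect of LCL521 on each gene (x axis, log2) in UT on the left and in PGCC on the right. Open circles with bars are fitted log2 fold changes with 95% intervals, and small circles and triangles are the differences of replicates 1, 2, 3, 6 and 4, 5. All intervals include 0, and the 6 LDHA differences lie below 0 in both panels.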

How the data were processed

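Total RNA of the 24 PPC1 libraries was sequenced by Novogene, and the authors deposited read counts per gene, as whole numbers without normalization, with each gene's length, position, identifier and symbol. Per the labels and the submitters' processing notes, CASAVA, STAR, HTSeq and DESeq2 were used with hg19. The annotation release, the strand setting and the treatment of reads shared between gene copies are not given in the sources used here, so antisense and pseudogene counts are uncertain. Per-sample columns that could not be mapped numbered 0.

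Counts were tested with edgeR 4.0.16 (R 4.3.3, limma 3.58.1): filterByExpr (minimum count 10, minimum total count 15), TMM, the quasi-likelihood test on the 2 conditions compared, and Benjamini-Hochberg adjustment over all genes tested, at 0.05. Standard errors are the log2 fold change divided by the square root of F, and intervals are at 95%. The interaction used all 24 libraries. CPM were scaled by TMM over 24 libraries, log2 CPM carry a prior count of 2, and RPKM use the deposited length. Single genes were also tested by two-sided exact permutation tests. The procedure was tested on simulated data.

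Same-numbered libraries deviated together: the lowest correlation of deviations from the condition means was 0.237 for PGCC and UT, 0.171 for PGCC_LCL and UT_LCL, 0.458 for UT_LCL and UT and 0.385 for PGCC_LCL and PGCC. The same-numbered library was the best match in 5 of 6 replicates for PGCC and UT and in 3 of 6 for PGCC_LCL and UT_LCL. It was the best match in 6 of 6 for each drug comparison. The pairing also follows from the design, in which each experiment gave all 4 conditions. The study's methods name no block, so it was an alternative. Other alternatives were DESeq2 1.42.0, RLE size factors, library totals, no filter, all 24 libraries in one fit, a gene length correction with and without the block, replicates 4 and 5 left out (with the block chosen after seeing the data), and each replicate left out.

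The members and gene lists were chosen with earlier results of these data known. Named genes are all 10 members, from each pathway list up to 2 genes with the largest rise and up to 2 with the largest fall among those past the threshold in PGCC against UT, HIF1A, MYC, TXNIP, PKM, TPI1 and PGAM1, and the gene most correlated with each member. Replicates are separate experiments by the series' design. Promoter letters are from RefSeq, GRCh38.p14. One gene symbol that a spreadsheet had turned into a date in the deposited table was restored from its Ensembl identifier (SEPTIN9).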

Additional observations from a re-analysis of the deposited data

Results flagged for a closer look

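GAPDH in UT stood apart in 1 library. Replicate 4 held 1555 CPM and the other 5 UT libraries lay between 2059 and 2371 CPM, so the gap to the nearest library was 0.666 of the whole range on the log2 scale, above Dixon's 95% critical value for 6 samples. It was the only such value in 40 groups, 10 genes in 4 conditions, and about 1 in 20 groups would stand apart so far by chance. The same library was also the lowest or second lowest of UT for each of the other 9 members other than HK2. No member's LCL521 effect passed the test of a difference between PGCC and UT.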

How the results depend on the processing

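Between PGCC and UT the ENO1 call held under all 16 alternatives (-0.58 to -0.33, adjusted p up to 0.045), and the number of members called was 1 in the main test, 2 under DESeq2 and RLE size factors, 3 under library totals and without replicates 4 and 5, 5 when the block was added to the latter (where 64.3% of all genes passed), and 1 to 2 when 1 replicate was left out. Log2 fold changes near 0 turned sign. Under library totals these were GPI (0.00), PFKP (0.06), GAPDH (0.04) and HIF1A (0.05), and under the gene length correction with the replicate block PFKP (0.00). Without replicates 4 and 5, with or without the block, these were SLC2A1 (-0.05), LDHA (-0.04) and HIF1A (0.11). With 1 replicate left out the range was -0.11 to 0.04 for PFKP, -0.14 to 0.01 for GAPDH and -0.10 to 0.02 for HIF1A.

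Between PGCC_LCL and UT_LCL 2 members were called, 4 with the replicate block, 2 with the block and the gene length correction, 1 without replicates 4 and 5, 3 there with the block, and 1 to 2 with 1 replicate left out. GPI (0.01) turned to -0.01 under DESeq2 and RLE size factors, -0.04 without the low count filter, -0.02 with all 24 libraries in one fit and under the gene length correction, -0.00 under that correction with the block, and -0.14 without replicates 4 and 5, with or without the block. ALDOA was 0.01 under library totals, and GAPDH -0.02 without replicates 4 and 5, with or without the block. With 1 replicate left out GPI ran from -0.05 to 0.06, ALDOA from -0.10 to 0.01 and GAPDH from -0.01 to 0.09.

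For LCL521 no member passed under any alternative. The genes called numbered 115 in UT with the replicate block, 235 with it and the gene length correction and 3 with it and without replicates 4 and 5. In PGCC they numbered 1 in the main test, 6 under DESeq2, 0 with all 24 libraries in one fit, 234 with the block, 259 with it and the length correction, 0 without replicates 4 and 5, 129 there with the block, and 0 to 1 with 1 replicate left out. SLC2A1 in UT ran from -0.08 to 0.01 and HK2 from -0.06 to 0.03. Between PGCC and UT, library totals also ended the calls of SLC16A3 (-0.51, adjusted p = 0.075), PYGB (-0.56, 0.079) and EGLN1 (-0.56, 0.064), with edgeR. Over all 6 replicates the pairing by the block changed no member call other than those of HK2 and PGK1 between PGCC_LCL and UT_LCL. Why these values moved was not tested. Counting error was small for the members, each with 1303 counts or more per library, and the spread between 6 experiments limits what could be called.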
